A study of Mus musculus with 40 samples.

Results

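The genes described here are 8 that carry out or report thyroid hormone action in a cell: the transporter Slc16a10, the deiodinase Dio2, the receptors Thra and Thrb, their partner Rxra, the corepressor Ncor1, and the hormone-responsive genes Hr and Klf9. They were chosen by name, as the rows of the count table whose Ensembl identifiers carry these symbols. All 8 were found among the 52636 genes of the table, and all 8 passed the filter on low counts, which kept 17079 genes. The tissue was brown adipose tissue, the thermogenic fat, from 40 male C57BL/6 mice in 8 groups of 5, profiled by bulk RNA sequencing.

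Antibody was injected once into the peritoneum of every mouse. Control mice were given 40 mg/kg of an anti-ragweed isotype antibody, and the others 20 mg/kg each of blocking antibodies to Jag1 and Jag2, which are ligands of the Notch receptors; the latter are called Jag antibody mice. Tissue was taken from both at 15 h, 5 d and 7 d. A further group of each antibody was collected at 7 d after thyroid hormone was given every day from day 2 (T4 at 1 ug/g and T3 at 0.05 ug/g). No group without antibody and no group with vehicle injections in place of the hormone is analysed here. The age is given as 10 to 12 weeks in the design text and as 10 to 14 weeks in the sample labels. Nothing in the labels describes pooling, so each library is taken as 1 mouse, and a mouse is named by its group and its number.

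Thyroid hormone reaches the nucleus in steps. T4, the main secreted form, and T3, the active form, cross the plasma membrane through transporters, and inside the cell type 2 deiodinase makes T3 from T4. Receptors sit on DNA with a retinoid X receptor whether or not hormone is bound: without it they recruit corepressors, and with it coactivators. In brown fat this local supply of T3 is known to act together with sympathetic signalling on thermogenic genes.

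Per the deposited counts, the 40 libraries held 12217623 to 36511893 reads assigned to genes. No 2 libraries of a group were alike within sampling noise (80 pairs, chi-square of the counts per degree of freedom at least 18.3). Pearson's r of log2 values in these pairs was 0.846 to 0.986. All 8 brown adipocyte markers (Ucp1, Cidea, Elovl3, Prdm16, Ebf2, Cox7a1, Adipoq and Plin1) had counts in all 40 libraries. RNA of skeletal muscle was present to a very unequal degree: the muscle score, a mean log2 CPM of 8 muscle genes, ran from 5.10 to 13.7 in control mice at 5 d and from -2.69 to 2.20 in Jag antibody mice at 5 d, with no overlap. The other marker scores are means of the same kind over 10 myeloid, 5 fibroblast, 5 endothelial, 5 cycling and 8 brown adipocyte genes, of which Cxcr2 was at 0 in 2 libraries and Ccnb1 in 12. Libraries also differed in how counts were spread over long and short transcripts. This is measured by a length slope, found by regressing, over 12127 genes, how far a library's log2 CPM lay from the mean of all libraries on the log2 of exonic length. The slope ran from -0.542 to -0.059 in control mice at 7 d and from 0.041 to 0.247 in control mice with hormone, so that these groups did not overlap. In whole tissue, fewer cells of a type and less RNA per cell cannot be told apart.

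Levels below are CPM, counts scaled to the TMM-adjusted library total. A difference is a log2 fold change from edgeR's quasi-likelihood test over all 40 libraries, with its standard error (SE), and is called when the Benjamini-Hochberg adjusted p over 17079 genes is under 0.05. Whether mice of 1 group came from separate litters or cages is not stated. A p-value therefore only sets a difference against the spread between these mice, estimated for each gene over all 8 groups.

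Promoter windows are shown for 3 members, chosen because Dio2 varied most between mice, Thrb fell with time in control mice, and Klf9 rose with hormone. They are RefSeq sequences on GRCm38.p6, from 250 bases before to 50 after an annotated start, written 5′ to 3′ on the gene's strand. Capitals mark a match to TGACGTCA, the palindromic cAMP response element, in Dio2 and to AGGTCA, the core site bound by receptors for thyroid hormone and by other nuclear receptors, in Thrb.
Dio2, chr12:90738989-90739288, minus strand: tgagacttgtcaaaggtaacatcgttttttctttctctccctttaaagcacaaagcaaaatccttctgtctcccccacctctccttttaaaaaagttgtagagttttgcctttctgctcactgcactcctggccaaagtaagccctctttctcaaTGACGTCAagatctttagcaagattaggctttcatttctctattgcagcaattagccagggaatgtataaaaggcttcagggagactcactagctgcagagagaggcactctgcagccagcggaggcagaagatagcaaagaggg
Thrb, first window, chr14:17660710-17661009, plus strand: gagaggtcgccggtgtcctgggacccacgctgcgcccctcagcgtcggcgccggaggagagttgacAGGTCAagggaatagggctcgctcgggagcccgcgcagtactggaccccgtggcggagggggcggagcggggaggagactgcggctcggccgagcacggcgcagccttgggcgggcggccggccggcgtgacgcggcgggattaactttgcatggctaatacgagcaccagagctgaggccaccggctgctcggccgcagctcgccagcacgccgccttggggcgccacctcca
Klf9, chr19:23140976-23141275, plus strand: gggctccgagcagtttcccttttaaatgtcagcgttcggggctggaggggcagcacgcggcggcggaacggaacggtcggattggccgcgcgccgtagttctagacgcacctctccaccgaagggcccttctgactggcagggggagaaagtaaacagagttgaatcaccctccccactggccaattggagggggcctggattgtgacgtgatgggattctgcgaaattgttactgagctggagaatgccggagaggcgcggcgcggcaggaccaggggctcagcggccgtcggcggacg

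The match in Dio2 began 95 bases before the RefSeq start, and that whole window lies upstream of the gene limits in the GENCODE annotation. The AGGTCA site in Thrb began 184 bases before the start of the first of its windows. Both strands were searched for AGGTCA, TGACGTCA and the direct repeat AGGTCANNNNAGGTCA, which contains the first motif. No promoter window was available for Thra or Hr, so neither was searched. Of 32851 promoter windows of 300 bases, 16.3% held AGGTCA, 1.79% held TGACGTCA and 0.0152% held the direct repeat. In Klf9 none of these letter strings was found in this window. In a second Rxra window the AGGTCA site occurred on both strands, 87 and 48 bases before the start. These matches describe the letters only.

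The members spanned a wide range of abundance. Per kilobase of exon, the mean level over the 40 libraries was 32.03 CPM for Dio2, 22.2 for Thra, 21.3 for Klf9, 15.4 for Rxra, 9.21 for Ncor1, 8.16 for Thrb, 4.54 for Hr and 4.27 for Slc16a10. Dio2 stood at the 92.5 percentile of the genes tested on that scale and Slc16a10 at the 60.7 percentile. On the same scale the Thra transcript was therefore more abundant than that of Thrb.

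**Figure D1:**
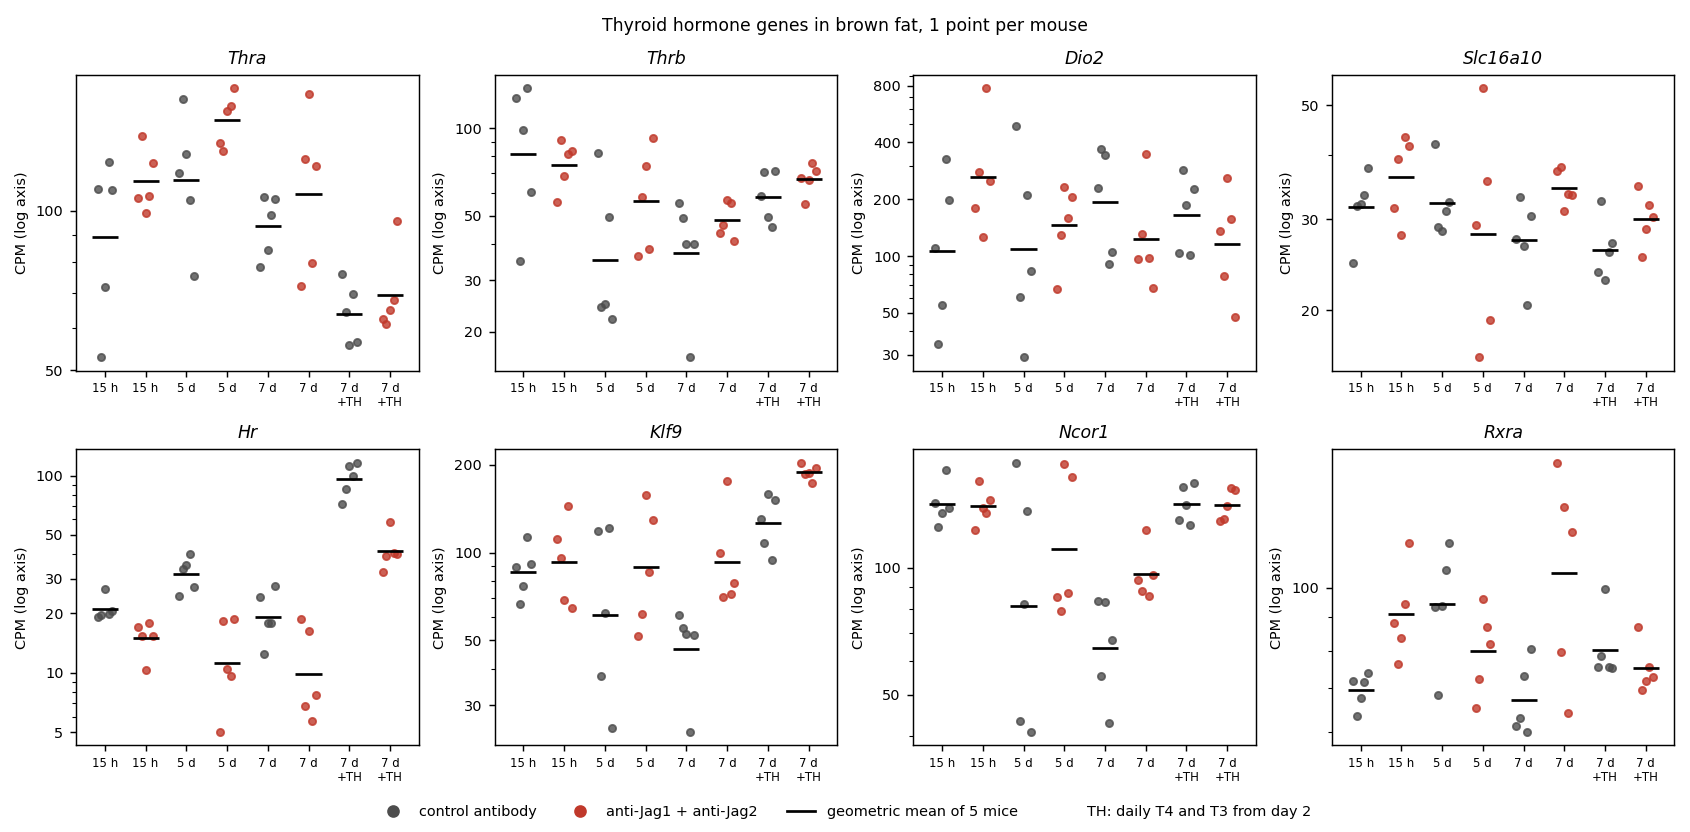
CPM of each of the 8 genes in each of the 40 mice, on a log axis, with 1 point per mouse and a bar at the geometric mean of the 5 mice of a group; TH marks groups given T4 and T3. Hr in control mice with hormone lies at 71.8 CPM or above, over every other group, while the Dio2 points of a group spread over several fold.

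With hormone Hr, Klf9 and Ncor1 rose and Thra fell in control mice, while Hr rose and Thra and Rxra fell in Jag antibody mice. Hr was lower with the Jag antibodies at 5 d and, among mice given hormone, at 7 d, and Rxra was higher with them at 7 d. Hormone in control mice called 4 of 8 members (Hr, Klf9 and Ncor1 higher, Thra lower), against 43.2% of all genes tested, so the share is near the background. Hormone in Jag antibody mice called 3 of 8 (Hr higher, Thra and Rxra lower), against 9.5% of all genes. The median log2 fold change of the 8 was 0.41 and 0.17 in these comparisons, and that of all genes 0.04 and -0.05.

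Antibody comparisons called 0 members at 15 h (1.14% of all genes), 1 at 5 d (Hr lower, 8.02%), 1 at 7 d (Rxra higher, 2.5%) and 1 at 7 d with hormone (Hr lower, 1.14%). At 15 h, 1 member, Rxra, had an unadjusted p under 0.05 (2052 of all 17079 genes), and DESeq2 also called 0 (555 of all 17078 genes). The member medians were 0.18, 0.11, 0.30 and 0.06, beside -0.04, 0.04, 0.05 and -0.02 for all genes. Over time, control mice called 2 members at 5 d against 15 h (36.4% of all genes) and 3 at 7 d against 15 h (45.1%), and Jag antibody mice called 0 in either (14.5% and 18.3%). In these Jag antibody comparisons no member had an unadjusted p under 0.05 (5294 and 5857 of all 17079 genes), and DESeq2 also called 0 (3290 and 3880 of all 17078 genes). With length and GC offsets 1 was called, Hr at 7 d against 15 h (-0.96, adjusted p = 0.0187), beside 1847 of all genes. The antibody by hormone difference called 0 members (0.00586% of all genes), the antibody difference at 5 d minus that at 15 h called 0 (0.0995%), and that at 7 d minus that at 5 d called Rxra (1.29%). For both counts of 0 DESeq2 also called 0 members (9 and 498 of all 17078 genes). An unadjusted p under 0.05 was reached by Rxra in the former (2103 of all 17079 genes) and by Hr and Rxra in the latter (2493). The control group at 7 d serves both the antibody and the hormone comparison, the group at 15 h both time comparisons, and so on for the Jag antibody groups, so these comparisons are not independent of each other.

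**Figure D2:**
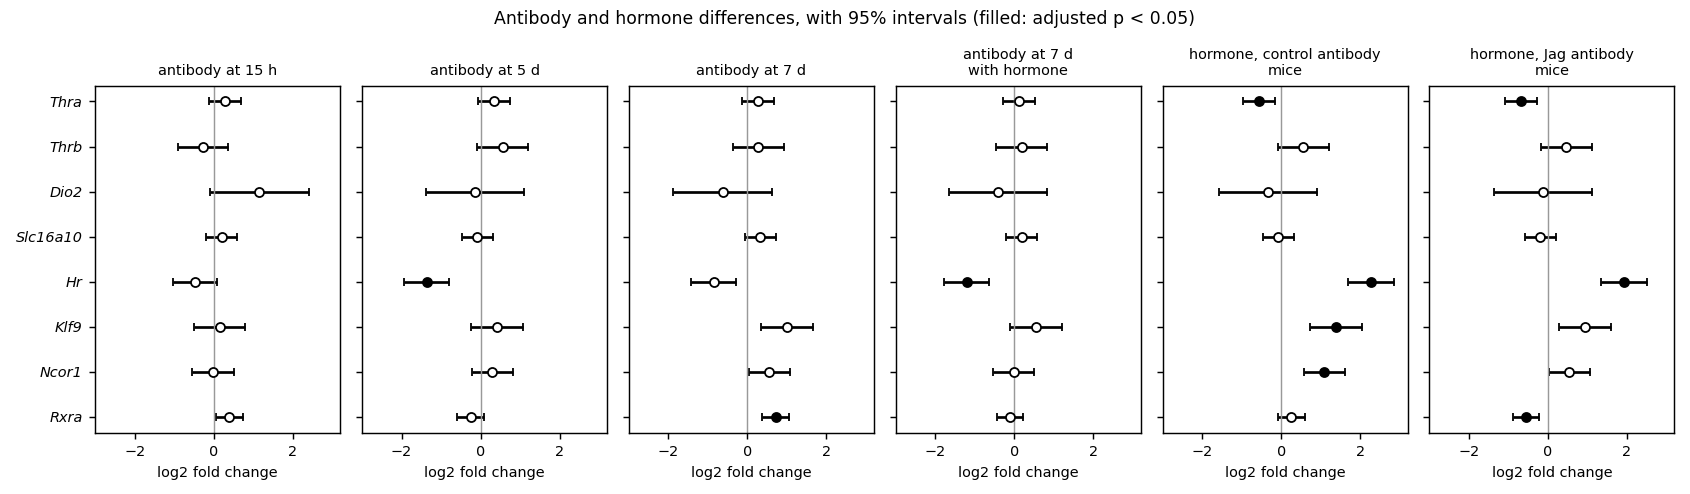
Log2 fold change of each gene with its 95% interval in the 4 antibody comparisons and both hormone comparisons; filled points have an adjusted p under 0.05. Hr is left of 0 in all 4 antibody comparisons (-0.48 to -1.36) and right of it with hormone (2.28 and 1.92).

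Slc16a10 (ENSMUSG00000019838, chromosome 10, 40033532 to 40142258, minus strand, GRCm38) encodes a transporter of aromatic amino acids that also carries thyroid hormone. In control mice at 7 d the 5 values were 27.5, 33.2, 26.7, 20.5 and 30.5 CPM, and with hormone 23.7, 32.6, 22.9, 25.9 and 27.0 CPM. In Jag antibody mice at 7 d they were 37.2, 38.0, 31.1, 33.7 and 33.4 CPM, and with hormone 34.8, 25.4, 28.7, 31.96 and 30.3 CPM. All 4 sets overlapped with each other. No comparison called the gene, and the log2 fold changes with hormone were -0.07 (SE 0.20, 95% interval -0.46 to 0.33, adjusted p = 0.811) in control mice and -0.20 (SE 0.20, 95% interval -0.59 to 0.19, adjusted p = 0.542) in Jag antibody mice. With per-library length and GC trends taken out as offsets, the hormone difference in control mice was -0.48 (adjusted p = 0.0359) and was called. Jag antibody mice at 5 d were the most spread group, from 16.2 CPM in mouse 7 to 54.0 CPM in mouse 8. Mean log2 CPM ran from 5.19 (Jag antibody, 15 h) to 4.72 (control with hormone), and no neighbours in the order of the 8 groups were farther apart than the larger of their SDs.

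Dio2 (ENSMUSG00000007682, chromosome 12, 90724552 to 90738438, minus strand) encodes type 2 deiodinase, the enzyme that makes T3 from T4 and is switched on in brown fat by noradrenaline through cAMP. Its transcript was abundant and very uneven between mice of the same group. At 15 h the control mice had 110.3, 34.3, 55.1, 325 and 198 CPM and the Jag antibody mice 179, 278, 126, 778 and 251 CPM. At 5 d the control mice ranged from 29.1 CPM (mouse 3) to 486 CPM (mouse 1), and at 7 d the Jag antibody mice ranged from 68.0 CPM (mouse 10) to 346 CPM (mouse 8). In each of the 8 groups the highest mouse was more than 2 times the lowest, and every pair of groups compared overlapped. The largest antibody difference was 1.16 at 15 h (SE 0.64, 95% interval -0.10 to 2.41, adjusted p = 0.520). Hormone differences were -0.33 (SE 0.63, 95% interval -1.58 to 0.91, adjusted p = 0.698) in control mice and -0.13 (SE 0.63, 95% interval -1.37 to 1.12, adjusted p = 0.918) in Jag antibody mice. All these intervals reach past 1 log2 unit on at least 1 side, so a change of that size lies within what these mice allow, and no comparison called Dio2. In order of mean log2 CPM the groups ran from Jag antibody at 15 h (8.03 ± 0.99, SD, n = 5) to control at 15 h (6.73 ± 1.32, SD, n = 5), with no neighbours farther apart than the larger SD. Within groups, log2 CPM of Dio2 and Thrb deviated together (r of deviations from group means 0.662 over 40 libraries, which share their extraction and depth). Dio2 did so nearly as much with Klf9 (0.631) and Ncor1 (0.543). Both Dio2 (0.478) and Thrb (0.636) also followed the length slope within groups.

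Thra (ENSMUSG00000058756, chromosome 11, 98740638 to 98769006, plus strand) encodes thyroid hormone receptor alpha. A gene count joins the isoform that binds hormone with the splice form that does not. Thra was lower with hormone under both antibodies. Control mice at 7 d had 78.3, 106, 84.3, 98.01 and 105 CPM and control mice with hormone 75.9, 64.5, 55.8, 69.7 and 56.4 CPM. Every control mouse with hormone was below every control mouse without it. The log2 fold change was -0.55 (SE 0.21, adjusted p = 0.0309), which is 0.682 times the level without hormone.

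In Jag antibody mice Thra read 72.1, 125, 166, 79.7 and 122 CPM at 7 d and 62.5, 61.2, 65.0, 67.9 and 95.5 CPM with hormone. Here the groups overlapped, because mouse 10 with hormone was above 2 of the mice without it, mice 6 and 9. The log2 fold change was -0.68 (SE 0.21, adjusted p = 0.0330). Both calls were near the threshold: the call in control mice was lost in 6 of 10 fits that each left out 1 mouse (adjusted p 0.0247 to 0.0805) and that in Jag antibody mice in 7 of 10 (adjusted p 0.0111 to 0.117). The mice concerned were control mice 2, 4 and 5 at 7 d and 2, 3 and 5 with hormone (values -0.61 to -0.49), and Jag antibody mice 7, 8 and 10 at 7 d and 6, 7, 8 and 9 with hormone (values -0.82 to -0.50). Both calls were also lost with no filter on low counts (adjusted p = 0.0954 and 0.0863). The difference between these hormone effects was -0.13 (SE 0.29, 95% interval -0.71 to 0.45, adjusted p = 0.857).

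Thra shares 263 exonic bases, 5.70% of its exons, with Nr1d1 on the opposite strand, which encodes the clock repressor REV-ERB alpha. Whether counting used the strand is not given in the sources used here, so reads in the shared bases cannot be told apart. With hormone in control mice Nr1d1 rose by 1.13 (SE 0.39, adjusted p = 0.0176), opposite to Thra, and over the 40 libraries these genes had r = -0.318 (within groups 0.307). Dio2 likewise shares 100 exonic bases (1.72%) with Gm26512, and Ncor1 82 (0.64%) with Pigl. Thra was not called in any antibody or time comparison. Jag antibody mice had the higher mean at each time, by 0.29, 0.34 and 0.26 at 15 h, 5 d and 7 d (SE 0.21, adjusted p 0.330 to 0.694). In order of mean log2 CPM the groups ran from Jag antibody at 5 d (7.22 ± 0.16, SD, n = 5) to control with hormone (6.00 ± 0.19, SD, n = 5), with no neighbours farther apart than the larger SD. Within groups, Thra was lower where the myeloid score was higher (r = -0.662) and higher where the brown adipocyte score was higher (r = 0.676), over 40 libraries. The myeloid score was 1.15 to 3.03 in control mice at 7 d and 3.25 to 4.42 with hormone, without overlap, and 1.65 to 3.08 and 2.91 to 4.58 in the Jag antibody groups. The brown adipocyte score was 9.12 to 9.74 and 7.73 to 8.48 in the same control groups. In the Jag antibody groups it overlapped, at 8.26 to 9.48 without hormone and 8.29 to 8.50 with it. The part of these scores in the Thra differences was not tested.

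Thrb (ENSMUSG00000021779, chromosome 14, 17660261 to 18038090, plus strand) encodes thyroid hormone receptor beta, the receptor that in brown fat is linked to induction of Ucp1. Over all libraries edgeR called it in no antibody or hormone comparison. The antibody differences were -0.27 at 15 h, 0.56 at 5 d (SE 0.33, adjusted p = 0.312), 0.28 at 7 d and 0.19 at 7 d with hormone, and without control mouse 1 that at 5 d was 0.96 and was called (adjusted p = 0.0366). With hormone the fold changes were 0.56 (SE 0.33, 95% interval -0.08 to 1.20, adjusted p = 0.168) in control mice and 0.47 (SE 0.33, 95% interval -0.17 to 1.11, adjusted p = 0.361) in Jag antibody mice, opposite in sign to those of Thra. The second was called in the fit of these groups alone (0.48, adjusted p = 0.0218). Thrb differed with time in control mice, which had 127, 35.0, 98.6, 138 and 60.6 CPM at 15 h, 82.3, 24.2, 24.8, 49.7 and 22.1 CPM at 5 d and 55.3, 49.1, 40.0, 16.3 and 39.9 CPM at 7 d.

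At 15 h control mice 1, 3 and 4 were above every control mouse of 5 d and 7 d, and control mice 2 and 5, at 35.0 and 60.6 CPM, were within their range. Thrb fell by 1.17 (SE 0.33, adjusted p = 0.00700) from 15 h to 5 d and by 1.19 (SE 0.33, adjusted p = 0.00382) from 15 h to 7 d, and each call held in all 10 fits that left out 1 mouse. Fitted on the groups compared alone, the first was -1.13 and not called (adjusted p = 0.112). In Jag antibody mice, with 55.6, 90.8, 68.3, 81.5 and 83.5 CPM at 15 h and 43.5, 46.6, 56.8, 55.5 and 40.9 CPM at 7 d, the same comparisons gave -0.34 (SE 0.33, adjusted p = 0.489) and -0.64 (SE 0.33, adjusted p = 0.160). The difference of the antibody effect between 5 d and 15 h was 0.83 (SE 0.46, adjusted p = 0.410), so the time courses of the antibodies were not shown to differ. Thrb levels went with the length slope over the 40 libraries (r = 0.735, within groups 0.636), and with the offsets both differences were smaller, -0.95 (adjusted p = 0.00989) and -0.92 (adjusted p = 0.00688), and still called. Mean log2 CPM ran from 6.36 in control mice at 15 h to 5.14 in control mice at 5 d, with no neighbours farther apart than the larger SD.

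Rxra (ENSMUSG00000015846, chromosome 2, 27676440 to 27762957, plus strand) encodes retinoid X receptor alpha, which pairs with both thyroid hormone receptors and with many other nuclear receptors. Its level at 7 d was higher with the Jag antibodies, in 3 of the 5 mice. Control mice at 7 d had 61.2, 63.0, 73.0, 60.0 and 80.4 CPM and Jag antibody mice 156, 79.7, 133, 64.2 and 122 CPM. Jag antibody mice 6, 8 and 10 were above all control mice, and mice 7 and 9 lay within the control range. The log2 fold change was 0.72 (SE 0.17, adjusted p = 0.0192).

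With hormone the Jag antibody mice had 87.0, 69.5, 72.0, 75.4 and 72.9 CPM, a fall by 0.56 (SE 0.17, adjusted p = 0.0322) from Jag antibody mice at 7 d. Control mice with hormone had 75.4, 78.4, 99.4, 75.5 and 75.3 CPM, a difference from control mice at 7 d of 0.26 (SE 0.17, adjusted p = 0.222) that missed the threshold. The antibody effect with hormone minus that without was -0.82 (SE 0.24, 95% interval -1.29 to -0.35, adjusted p = 0.374), which was not called. The antibody call was lost without Jag antibody mouse 6, 8 or 10 in turn, and without control mouse 2 or 4 (adjusted p up to 0.103, values 0.56 to 0.87). With length and GC offsets it was 0.56 (adjusted p = 0.0551), and fitted on these groups alone 0.72 (adjusted p = 0.202). The hormone call in Jag antibody mice was lost in 7 of 10 such fits, without Jag antibody mouse 6, 8 or 10 at 7 d or mouse 7, 8, 9 or 10 with hormone, with values of -0.70 to -0.40.

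At 5 d the antibody difference in Rxra was -0.25 (SE 0.17, adjusted p = 0.386), with 93.5, 68.4, 93.8, 107 and 117 CPM in control and 65.3, 72.4, 95.9, 87.1 and 81.8 CPM in Jag antibody mice. The antibody effect at 7 d minus that at 5 d was 0.97 (SE 0.24, adjusted p = 0.0405). This was the only one of the 24 differences of effects tested over the 8 genes that was called. The call was lost in 12 of 20 fits that left out a mouse (values 0.84 to 1.16, the lowest without Jag antibody mouse 6 at 7 d), adjusted for the muscle score (0.73, adjusted p = 0.584) and with offsets (0.63, adjusted p = 0.126). At 15 h all Jag antibody mice (88.2, 76.2, 83.7, 94.4 and 117 CPM) were above all control mice (71.8, 63.6, 67.7, 71.5 and 74.0 CPM), yet the difference of 0.40 (SE 0.17, adjusted p = 0.290) was not called. In control mice Rxra was higher at 5 d than at 15 h by 0.46 (SE 0.17, adjusted p = 0.0331), and adjusted for the muscle score the value was 0.31 (adjusted p = 0.199) and with offsets 0.18 (adjusted p = 0.440). The call was lost in 4 of 10 fits, those without control mouse 2 or 3 at 15 h or 4 or 5 at 5 d (adjusted p up to 0.0662). The muscle score was 5.10 to 13.7 in control mice at 5 d and -1.82 to 10.2 at 15 h, and over the 40 libraries Rxra had r = 0.382 with it.

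Ncor1 (ENSMUSG00000018501, chromosome 11, 62316426 to 62458541, minus strand) encodes the corepressor that thyroid hormone receptors recruit in the absence of hormone. It has the longest exonic sequence of the 8 members, 12811 bases, against 4614 to 7403 for the others. Control mice at 7 d had 83.4, 55.3, 83.1, 42.9 and 67.5 CPM and control mice with hormone 129.9, 156, 141, 126 and 159 CPM. All 5 mice with hormone were above all 5 without. The log2 fold change was 1.10 (SE 0.27, adjusted p = 0.00148), and with length and GC offsets it was 0.49 (adjusted p = 0.00692), smaller but still called.

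Jag antibody mice had 93.7, 88.3, 123, 85.8 and 96.3 CPM at 7 d and 129, 130.3, 139.8, 155 and 153 CPM with hormone. These groups did not overlap either, but the difference of 0.54 (SE 0.27, 95% interval 0.01 to 1.06, adjusted p = 0.188) was not called. Its unadjusted p from the same test was 0.0515, although the interval, drawn with a normal quantile, lies just above 0. The difference was called in the fit of these groups alone (0.55, adjusted p = 0.0141). The length slope also separated these groups, from -0.159 to 0.026 without hormone and from 0.040 to 0.187 with it. The antibody effect with hormone minus that without was -0.56 (SE 0.38, adjusted p = 0.505). Without hormone at 7 d all Jag antibody mice were above all control mice, by 0.55 (SE 0.27, adjusted p = 0.235), which was not called. There the length slope ran from -0.542 to -0.059 in control and from -0.159 to 0.026 in Jag antibody mice, so it too tended to be higher in the latter. In control mice Ncor1 fell by 1.10 (SE 0.27, adjusted p = 0.00132) from 15 h, when the values were 142, 125, 135, 171 and 138 CPM, to 7 d. With offsets this fall was 0.68 on the log2 scale (-0.68, adjusted p = 0.000366).

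Over the 40 libraries Ncor1 followed the length slope closely (r = 0.953, and 0.930 for deviations from group means). The values at 5 d show this within a group: the control mice had 178, 43.4, 81.9, 137 and 40.9 CPM with length slopes of 0.194, -0.379, -0.101, 0.041 and -0.453 in the same order. Levels ran from control with hormone to control at 7 d (6.01 log2 CPM), with control at 15 h, Jag antibody with hormone and Jag antibody at 15 h all next to the first (7.15, 7.14, 7.14 and 7.13 log2 CPM), and no neighbours were farther apart than the larger SD.

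**Figure D3:**
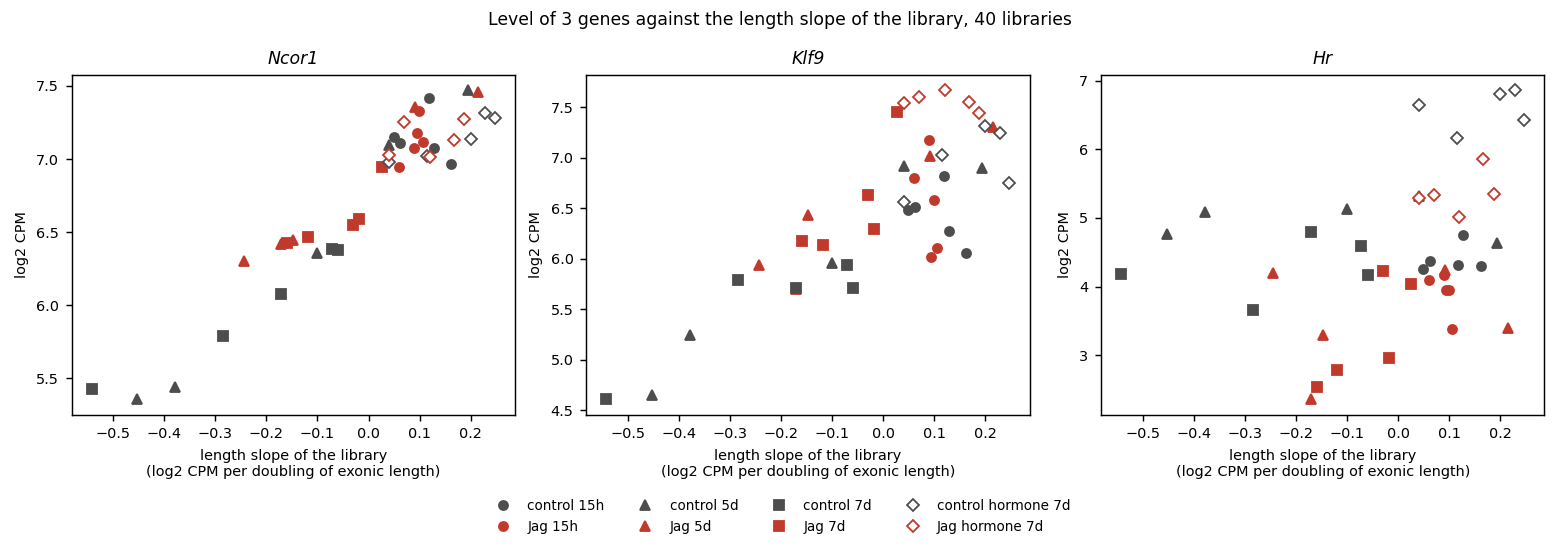
Log2 CPM of Ncor1, Klf9 and Hr against the length slope of the library in 40 libraries, with symbols for time, colour for antibody and open symbols for hormone. Ncor1 follows the slope (r = 0.953), Klf9 less closely (r = 0.81), and Hr least (r = 0.358). For Hr the open control symbols are on top at slopes above 0, and some open Jag antibody symbols lie below the highest filled symbol.

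Hr (ENSMUSG00000022096, chromosome 14, 70552212 to 70573548, plus strand) encodes hairless, a nuclear corepressor whose gene is a classical direct target of thyroid hormone receptors. It rose with hormone under both antibodies and was lower with the Jag antibodies at 5 d and at 7 d with hormone. Control mice at 7 d had 24.1, 12.5, 17.9, 17.98 and 27.7 CPM and control mice with hormone 71.8, 85.8, 112, 99.8 and 116 CPM. Jag antibody mice had 18.7, 6.79, 16.3, 5.73 and 7.71 CPM and with hormone 32.3, 39.2, 57.9, 40.7 and 40.1 CPM. The groups with hormone stood clear of those without under either antibody, 4.84-fold (log2 2.28, SE 0.30, adjusted p = 1.90e-06) in control mice and 3.79-fold (log2 1.92, SE 0.29, adjusted p = 5.83e-05) in Jag antibody mice.

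Every Jag antibody mouse with hormone was also below every control mouse with hormone, and the log2 fold change was -1.21 (SE 0.29, adjusted p = 0.0239). That call was kept under all 8 alternative settings and lost in 5 of 10 fits that left out a mouse (control mouse 3, 4 or 5, or Jag antibody mouse 6 or 10, with adjusted p up to 0.0892 and values of -1.37 to -1.15). The antibody effect on Hr had the same sign at each time without hormone. At 15 h control mice had 19.1, 19.6, 26.8, 19.9 and 20.6 CPM and Jag antibody mice 17.1, 15.4, 10.3, 17.9 and 15.4 CPM, without overlap, and the difference, -0.48 (SE 0.29, adjusted p = 0.581), was not called.

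At 5 d control mice had 24.7, 33.8, 35.1, 39.9 and 27.1 CPM and Jag antibody mice 5.03, 18.3, 10.4, 9.69 and 18.8 CPM. Here too no mice overlapped, and the log2 fold change was -1.36 (SE 0.29, adjusted p = 0.00563), or 0.389 times the control level. At 7 d the groups overlapped, since Jag antibody mice 6 and 8 lay within the control range, and the difference of -0.86 (SE 0.29, adjusted p = 0.0978) was not called. At 5 d the muscle score also separated the groups, and with it as a covariate Hr differed by -1.16 (adjusted p = 0.101), without a call. At 7 d, where the muscle scores overlapped, length and GC offsets gave -1.08 (adjusted p = 0.0183).

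The effects on Hr were not shown to differ from each other. The antibody effect at 5 d minus that at 15 h was -0.89 (SE 0.40, adjusted p = 0.301), that at 7 d minus that at 5 d was 0.51 (SE 0.40, adjusted p = 0.566), and that with hormone minus that without was -0.35 (SE 0.40, 95% interval -1.14 to 0.44, adjusted p = 0.690). In order of mean log2 CPM, control with hormone (6.58 ± 0.29, SD, n = 5), Jag antibody with hormone (5.37 ± 0.30) and control at 5 d (4.99 ± 0.28) were each farther from the next group than the larger SD. Control at 15 h (4.40 ± 0.20), control at 7 d and the Jag antibody groups at 15 h, 5 d and 7 d followed without such gaps.

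The fibroblast score was also higher in control mice with hormone (7.67 to 8.83) than at 7 d without (6.27 to 7.13), and the cycling score likewise (2.66 to 3.52 against -1.07 to 0.02). Over the 40 libraries Hr had r = 0.714 with the fibroblast score and 0.702 with the cycling score, and for deviations from group means 0.217 and 0.039. In the called antibody comparisons of Hr the groups overlapped in both scores, though their means differed. With hormone the fibroblast score was 7.67 to 8.83 (mean 8.25) in control and 6.81 to 7.95 (mean 7.47) in Jag antibody mice. The cycling score there was 2.66 to 3.52 (mean 3.10) and 0.702 to 2.94 (mean 1.66). At 5 d the fibroblast score was 7.00 to 8.89 (mean 8.05) in control and 6.52 to 7.38 (mean 6.93) in Jag antibody mice. Each of these means was lower in Jag antibody mice, as Hr was. The cycling score went the other way at 5 d, with 0.114 to 1.27 (mean 0.692) in control and 0.035 to 2.17 (mean 1.03) in Jag antibody mice. Their part in the Hr differences was not tested.

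Klf9 (ENSMUSG00000033863, chromosome 19, 23141226 to 23168134, plus strand) encodes a zinc finger transcription factor induced by thyroid hormone and also by glucocorticoids. Control mice at 7 d had 61.4, 55.2, 52.4, 24.3 and 52.3 CPM and with hormone 130.1, 108, 159, 94.7 and 151 CPM. Jag antibody mice had 99.4, 70.3, 175, 72.1 and 78.5 CPM and with hormone 204, 186, 187, 173 and 194 CPM. In control mice the groups did not overlap, and the log2 fold change was 1.39 (SE 0.34, adjusted p = 0.00142) and with offsets 1.24 (adjusted p = 0.00198). In Jag antibody mice the groups overlapped through mouse 8 without hormone, at 175 CPM, and the log2 fold change of 0.93 (SE 0.33, adjusted p = 0.0694) was not called. Without that mouse it was 1.24 (adjusted p = 0.0212), and it was also called by DESeq2 (0.95, adjusted p = 0.0356) and in a fit of these groups alone (0.94, adjusted p = 0.0176). The length slope also separated these Jag antibody groups, from -0.159 to 0.026 without hormone and from 0.040 to 0.187 with it.

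The antibody differences of Klf9 had the opposite sign to those of Hr. At 7 d all Jag antibody mice were above all control mice, by 1.01 (SE 0.34, adjusted p = 0.0940), and with hormone again all 5 were above all 5, by 0.56 (SE 0.33, adjusted p = 0.547). Neither difference was called by edgeR over all libraries. DESeq2 called the first (1.00, adjusted p = 0.0491), and the fit of the compared groups alone called the second (0.54, adjusted p = 0.0499). At 7 d without hormone the length slope was -0.542 to -0.059 in control and -0.159 to 0.026 in Jag antibody mice. With hormone it was 0.041 to 0.247 and 0.040 to 0.187. The Jag antibody mice with hormone lay close together (mean log2 CPM 7.56 ± 0.09, SD, n = 5) and were farther from the next group, control with hormone (6.98 ± 0.32, SD, n = 5), than the larger SD; no other neighbours in the order were. The antibody effect with hormone minus that without was -0.46 (SE 0.47, 95% interval -1.38 to 0.46, adjusted p = 0.657).

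In control mice Klf9 fell by 0.83 (SE 0.33, adjusted p = 0.0416) from 15 h, when it read 89.5, 66.5, 77.2, 113 and 91.2 CPM, to 7 d. That call was lost in 8 of 10 fits that left out a mouse (all but control mouse 2 at 15 h and control mouse 1 at 7 d, with values -0.91 to -0.65) and with offsets (-0.73, adjusted p = 0.0552). Control mouse 4 at 7 d, the shallowest library, had the lowest Klf9, Thrb and Ncor1 of its group and a length slope of -0.542. Without it the hormone difference of Klf9 in control mice remained called, as it did without any other single mouse (values 1.22 to 1.49). Over the 40 libraries Klf9 had r = 0.81 with the length slope and 0.615 with the endothelial score (within groups 0.543), and Ncor1 had 0.491 with the latter (within groups 0.665). The endothelial score was 5.95 to 6.95 in control mice at 7 d and 6.66 to 7.05 with hormone, and 5.71 to 6.79 and 6.64 to 7.30 in Jag antibody mice. Its part in the Klf9 and Ncor1 differences was not tested.

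**Figure D4:**
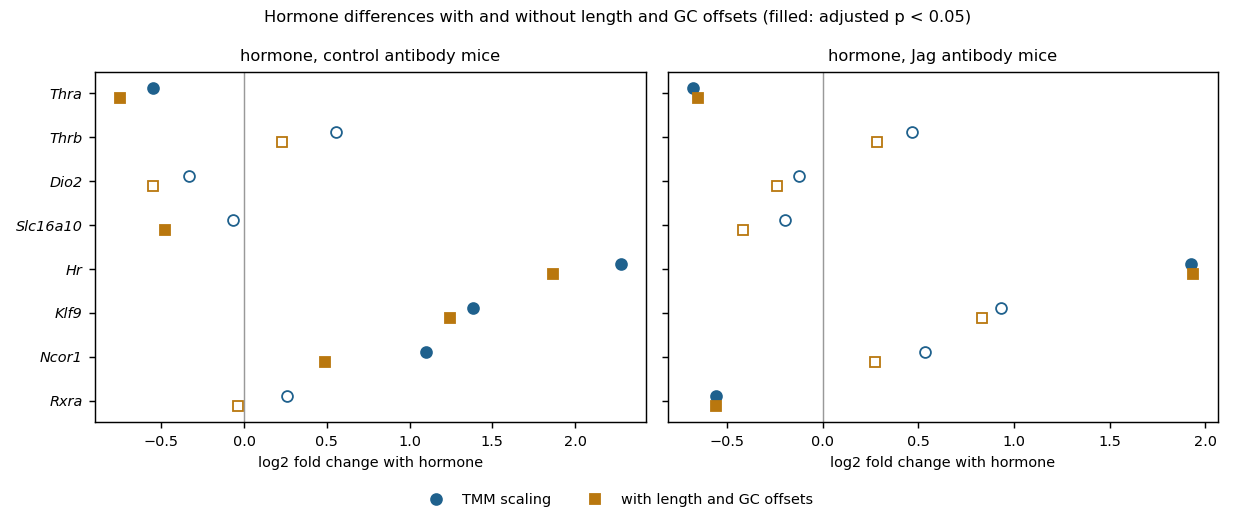
Log2 fold change with hormone of the 8 genes in control and Jag antibody mice, with TMM scaling (circles) and with per-library length and GC offsets (squares); filled symbols have an adjusted p under 0.05. In control mice Ncor1 moves from 1.10 to 0.49 and Slc16a10 from -0.07 to -0.48, while Hr (2.28 and 1.87), Klf9 (1.39 and 1.24) and Thra (-0.55 and -0.75) keep sign and call.

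The other genes of the pathway were taken from a list of 26 transporters, deiodinases and handling factors, receptor partners, corepressor subunits and coactivators, of which 24 passed the filter; Dio1 and Slco1c1 did not. Hormone in control mice called 11 of the 24, 7 higher and 4 lower, against 43.2% of all genes, a share near the background (median 0.39, and 0.04 for all genes). Of those with the smallest adjusted p, Slc7a5, the light chain of an amino acid carrier that also takes up T3 and T4, rose by 3.46 (SE 0.66, adjusted p = 0.000144) from a low level (mean 2.51 CPM over all libraries). Slc7a8, a related light chain, rose by 2.27 (SE 0.56, adjusted p = 0.00175). Ncoa3, a coactivator, rose by 1.17 (SE 0.28, adjusted p = 0.00110), and Hdac3, the deacetylase in the NCOR1 complex, fell by 0.56 (SE 0.13, adjusted p = 0.000830). Ncor1 and Hdac3, whose proteins sit in 1 complex, thus moved in opposite directions with hormone. The other genes called are named here after their values were seen. Dio3, the deiodinase that inactivates T4 and T3, was higher by 3.72 (SE 1.11, adjusted p = 0.00722) at a mean of 0.193 CPM, and limma voom did not call it (2.24, adjusted p = 0.0543).

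Of the other called genes of that list, Marchf6, Ncoa2, Ncoa3 and Ep300 were higher and have 7895 to 15642 exonic bases, and Rxrb, Rxrg, Hdac3 and Gps2 were lower and have 1604 to 4054. With length and GC offsets Ep300 (0.30, adjusted p = 0.113) and Gps2 (-0.12, adjusted p = 0.645) were no longer called. The offset values of Ncoa2, Marchf6 and Ncoa3 were 0.46, 0.51 and 0.73, smaller than 1.18, 0.94 and 1.17 but still called. The Rxrb call was lost in 5 of 10 fits, those without control mouse 3 or 4 at 7 d or 2, 3 or 5 with hormone (adjusted p up to 0.105), and that of Gps2 without control mouse 4 at 7 d (adjusted p = 0.111). Rxrb was also not called with no low-count filter (adjusted p = 0.0991) or in the fit of the compared groups alone (adjusted p = 0.104).

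Slc7a8 was also the 1 gene of the 24 called with the antibody at 7 d (2.5% of all genes) and at 7 d with hormone (1.14%). It was higher by 2.41 (SE 0.57, adjusted p = 0.0178) at 7 d and by 2.38 (SE 0.55, adjusted p = 0.0201) with hormone. The first call was lost without control mouse 2 or Jag antibody mouse 6, and the second without control mouse 1, 2, 3 or 5 or Jag antibody mouse 6 or 10 with hormone, with values of 2.05 to 2.66. Hormone in Jag antibody mice called 2 of the 24, against 9.5% of all genes, with Slc7a8 higher by 2.23 (SE 0.55, adjusted p = 0.00838) and Gps2, a corepressor subunit, lower by 0.77 (-0.77, SE 0.24, adjusted p = 0.0360). The Gps2 call was lost in 5 of 10 fits that left out a mouse (the smallest value, -0.47, without Jag antibody mouse 6 at 7 d) and with offsets (-0.46, adjusted p = 0.101). It was also lost with RLE scaling (adjusted p = 0.0523), no low-count filter (adjusted p = 0.0716) and the muscle score as covariate (adjusted p = 0.0544). At 5 d the antibody called 1 of the 24 (8.02% of all genes), Crym, which encodes a cytosolic T3-binding protein, lower (-3.17, SE 0.96, adjusted p = 0.0361), at a mean of 0.272 CPM; adjusted for the muscle score it was -1.34 (adjusted p = 0.690). The Crym call was also lost with no low-count filter (adjusted p = 0.0543) and in 7 of 10 fits, those without control mouse 3, 4 or 5 or Jag antibody mouse 7, 8, 9 or 10 (adjusted p up to 0.0974). At 15 h edgeR called 0 of the 24 (1.14% of all genes) and DESeq2 called 1 (555 of all 17078 genes). An unadjusted p under 0.05 was reached there by 3 of the 24 and by 2052 of all 17079 genes.

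**Figure D5:**
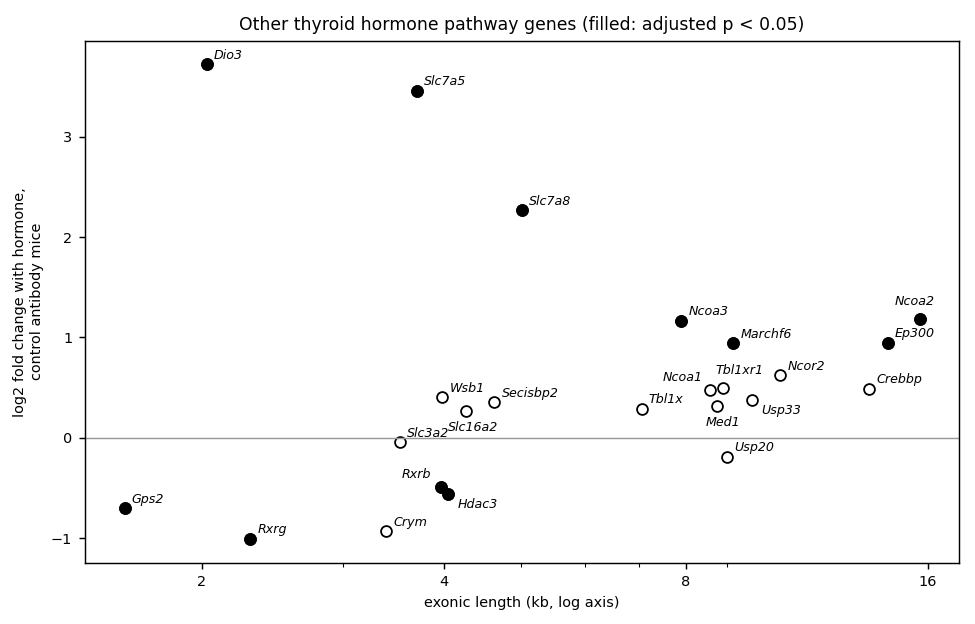
Log2 fold change with hormone in control mice of the 24 tested pathway genes against exonic length in kb on a log axis; filled points have an adjusted p under 0.05. Slc7a5 (3.46) and Slc7a8 (2.27) rise well above genes of similar length, as does Dio3 (3.72), while Ncoa2 (1.18) and Ncoa3 (1.17) are long and Hdac3 (-0.56) and Gps2 (-0.70, not called with offsets) short.

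A list of 11 further genes known to respond to thyroid hormone, most in liver or fat, gave calls in both directions. Hormone in control mice called 3 of 11, against 43.2% of all genes: Cpt1a, which brings fatty acids into mitochondria, rose by 1.61 (SE 0.37, adjusted p = 0.000883), while Ucp1, the uncoupling protein of brown fat, changed by -1.61 (SE 0.42, adjusted p = 0.00229) and the lipogenic gene Thrsp by -1.46 (SE 0.53, adjusted p = 0.0261). Ucp1 and Thrsp were named after their values were seen. With length and GC offsets Ucp1 was no longer called (-0.93, adjusted p = 0.0567), nor was Thrsp (-1.08, adjusted p = 0.0927). The call of Thrsp was also lost without control mouse 2 or 4 at 7 d or 3 or 5 with hormone (adjusted p up to 0.0657). With no low-count filter it was lost as well (adjusted p = 0.062). In Jag antibody mice 1 of 11 was called, against 9.5% of all genes, the desaturase Scd1, higher by 1.55 (SE 0.46, adjusted p = 0.0297), a call lost without Jag antibody mouse 6, 8 or 10 at 7 d or 8 or 9 with hormone (values 1.15 to 1.92). The fit of these groups alone did not call Scd1 (adjusted p = 0.0682).

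Scd1 was also the 1 of 11 called with the antibody at 7 d without hormone (2.5% of all genes), where it was lower (-1.68, SE 0.47, adjusted p = 0.0437). Both Scd1 differences share the Jag antibody mice at 7 d, and the antibody call was lost in 6 of 10 fits that left out a mouse, control mouse 1, 2 or 5 or Jag antibody mouse 6, 8 or 10 (adjusted p up to 0.125). It was also lost in the fit of these groups alone (adjusted p = 0.157) and with no low-count filter (adjusted p = 0.0817). At 5 d the antibody called 4 of 11 (8.02% of all genes), with the lipogenic genes Fasn (-3.36), Acaca (-2.23) and Me1 (-1.87) lower and the coactivator Ppargc1a higher (1.12, SE 0.36, adjusted p = 0.0489). Adjusted for the muscle score, which separated the groups at 5 d, Me1 (-2.24, adjusted p = 0.0536) and Ppargc1a (0.90, adjusted p = 0.431) were not called. Fasn (-4.28, adjusted p = 0.0183) and Acaca (-2.92, adjusted p = 0.0239) stayed called. The values of the lipogenic genes were thus larger in size with the adjustment, and with offsets added to it Me1 was called (-2.35, adjusted p = 0.0395). The Ppargc1a call was also lost in 6 of 10 fits, those without control mouse 2, 3 or 5 or Jag antibody mouse 8, 9 or 10 (adjusted p up to 0.166). RLE scaling (adjusted p = 0.0548), no low-count filter (adjusted p = 0.102) and the compared groups alone (adjusted p = 0.1865) lost it too. Over time, 7 d against 15 h called 8 of 11 in control mice, 7 higher and 1 lower, against 45.1% of all genes, and 1 of 11 in Jag antibody mice (18.3%).

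Genes whose level most resembled each member were found as the 2 highest Pearson correlations of log2 CPM over the 40 libraries among 12139 genes. For Hr they were Arsi (r = 0.856) and Col6a1 (0.855), and within groups these fell to 0.307 and 0.344. For Ncor1 they were the coactivator Ncoa2 (0.967) and Prrc2c (0.959), and for Thrb Ptpn4 (0.888) and Manea (0.883). For Klf9, Adcy9 was among them (0.912). For Rxra they were Fgfr1 (0.820) and Slc20a2 (0.702), for Thra Akt2 (0.809) and Mif4gd (0.806), for Dio2 Nr4a2 (0.715) and Cxadr (0.700), and for Slc16a10 Zfp11 (0.602) and Rin2 (0.598). Among the members themselves the closest were Klf9 and Ncor1 (0.819) and Thrb and Ncor1 (0.818). Hr and Klf9, both hormone targets, had r = 0.365. Thra and Hr had r = -0.586 over all libraries and 0.009 within groups. These libraries share groups, length slope and depth, so the correlations only describe them.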

How the data were processed

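Total RNA of brown adipose tissue from 40 mice was sequenced as single-end reads of 50 bases, 1 library per mouse. The authors deposited raw counts per Ensembl gene, and these counts are the only values used; their FPKM table was not used. GSNAP and limma are named per the submitters' processing notes; versions, genome build, annotation, counting program and strand setting are not given in the sources used here. Gene names, positions and lengths were taken from GENCODE M21 on GRCm38, and promoters from RefSeq.

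From the counts, edgeR 4.0.16 (R 4.3.3) fitted 1 model with a mean per group to 17079 of 52636 genes kept by filterByExpr, with TMM scaling and 32 residual degrees of freedom. Quasi-likelihood F tests gave 10 differences between groups and 3 differences of differences, and p-values were adjusted by Benjamini-Hochberg over all genes tested. CPM used TMM-scaled totals and log2 CPM a prior count of 2. The SE is the one implied by the F statistic. The code was tested on simulated counts. Depth, 12217623 to 36511893 counts, gave each member at least 83 counts in every library.

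Sample titles number control mice 1 to 5 and Jag antibody mice 6 to 10 in every time and hormone group. These are different animals, and since not every same-numbered pair had deviations correlated over 0.1, the numbers were not taken as pairs. Alternatives were RLE scaling, no low-count filter, a muscle score covariate, per-library length and GC offsets, a replicate block (also with offsets), fits of the compared groups alone, limma voom (limma 3.58.1), DESeq2 1.42.0 and leaving out each mouse; the muscle score with offsets was added after seeing the data. All 8 members are named, with at most 5 genes per comparison from the other 2 lists by smallest adjusted p and 2 most correlated genes per member; any further list genes named were chosen after their values were seen. For Klf9, 1 of its 2 correlated genes is not reported here. Members and lists were chosen with earlier results of these data known. Figures were drawn with matplotlib 3.10.9.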

Additional observations from a re-analysis of the deposited data

Results flagged for a closer look

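In 6 of 64 sets of 5 mice, 1 mouse stood apart from the other 4 by more than 0.71 of the whole range of log2 CPM (Dixon's 95% limit for 5 values). Chance alone flags about 1 set in 20, or 3.2 of 64. Control mouse 4 at 7 d was the lowest of its group for Thrb (4.04, next 5.32) and for Klf9 (4.61, next 5.71). Jag antibody mouse 10 with hormone was the highest for Thra (6.58, next 6.09), and control mouse 3 with hormone the highest for Rxra (6.64, next 6.30). At 15 h, Hr was highest in control mouse 3 (4.75, next 4.37) and lowest in Jag antibody mouse 8 (3.38, next 3.95). The antibody effect on Rxra at 7 d differed from that at 5 d by 0.97 on the log2 scale, by edgeR's test of the difference itself.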

How the results depend on the processing

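Counts of members called moved as follows from the values in the report, with the calls over all genes in brackets. With the muscle score as a covariate, alone or with length and GC offsets, they were 0 for the antibody at 5 d (89 and 101 of 17079). They were 1 under these settings for 5 d against 15 h in control mice (4239 and 2557). With offsets alone they were 1 in that time comparison (4426). Offsets (alone, with the replicate block or with the muscle score) gave 1 for 7 d against 15 h in Jag antibody mice (1847, 1633 and 2032). Fits of the compared groups alone gave 0 for the antibody at 7 d (53 of 14575) and 2 for it at 7 d with hormone (694 of 15345). They gave 0 for 5 d against 15 h in control mice (0 of 15305) and 2 for 7 d against 15 h in Jag antibody mice (4221 of 14934). DESeq2 gave 2 for the antibody at 7 d (835 of 17078). No low-count filter (990 of 33357) and limma voom (1475 of 17079) gave 1 for hormone in Jag antibody mice. The antibody difference at 7 d minus that at 5 d called 0 with no filter (63), the muscle score (0), offsets (282) and both (0). It also called 0 with the block with offsets (410), the compared groups alone (2) and voom (7). Leaving out 1 mouse gave 1 to 2 members for the antibody at 5 d (385 to 2726), 0 to 1 at 7 d (144 to 848) and 0 to 1 at 7 d with hormone (80 to 232). It gave 1 to 3 for hormone in Jag antibody mice (1048 to 1912) and 0 to 1 for 7 d minus 5 d (5 to 968). For 5 d against 15 h it gave 1 to 3 in control mice (4299 to 7659) and 0 to 1 in Jag antibody mice (1164 to 3252).

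Signs turned only for differences that were not called. For Ncor1 these were 0.002 (no filter), 0.012 (offsets) and 0.022 (muscle score with offsets) at 15 h, and 0.092 (offsets) and 0.08 (muscle score with offsets) at 7 d with hormone. For Rxra they were 0.082 at 5 d (muscle score with offsets), 0.032 and 0.05 at 7 d with hormone (offsets, muscle score with offsets), and -0.034, -0.027 and -0.055 for hormone in control mice (offsets, block with offsets, muscle score with offsets). For Hr the antibody by hormone difference was 0.07, 0.078 and 0.142 under the same settings, and 7 d minus 5 d was -0.067 (muscle score with offsets). Dio2 at 5 d was 0.438 with voom. Leaving out 1 mouse gave -0.435 to 0.692 for Dio2 at 5 d, -0.492 to 0.468 for it with hormone in Jag antibody mice, -0.038 to 0.296 for Klf9 and -0.071 to 0.091 for Ncor1 at 15 h, -0.065 to 0.027 for Ncor1 and -0.005 to 0.195 for Thra at 7 d with hormone, and -0.381 to 0.08 for Slc16a10 at 5 d. The causes were not tested.

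Over all genes, calls ranged over the alternatives from 0 to 555 at 15 h (194 as reported), 89 to 1992 at 5 d (1369), 53 to 835 at 7 d (427), 117 to 694 at 7 d with hormone (194), 6523 to 7876 for hormone in control mice (7378) and 990 to 2782 in Jag antibody mice (1622). For 5 d against 15 h they were 0 to 6953 in control mice (6214) and 1494 to 3550 in Jag antibody mice (2470), for 7 d against 15 h 5796 to 8173 (7698) and 1633 to 4221 (3126), and for the 3 differences of differences 0 to 9 (1), 0 to 498 (17) and 0 to 964 (220). Same-numbered mice had mean correlations of 0.0856 to 0.208. With the number as a replicate block, hormone called 7424 genes in control and 1496 in Jag antibody mice. Under the block Thra with hormone in Jag antibody mice (-0.66, adjusted p = 0.0507) and Klf9 at 7 d against 15 h in control mice (-0.80, adjusted p = 0.0603) were not called, and Ncor1 at 5 d against 15 h in control mice was (-0.67, adjusted p = 0.0482). With 5 mice per group and SEs up to 0.64 for Dio2, even its antibody difference of 1.16 at 15 h was not called by edgeR (adjusted p = 0.520). Differences of 1 log2 unit or less could therefore be missed for that gene.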
